A study of Mus musculus with 12 samples.

Results

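The endothelial genes of the mouse thymus described here are Pecam1, Cdh5, Kdr, Flt1, Tek, Acvrl1, Eng, Vwf, Selp and Plvap, 10 of the 22843 gene symbols in the mRNA table, and all 10 were among the 14805 genes tested. For each gene the deposited estimated counts of every transcript with its symbol were summed, and the sums were followed through 3 ages. The genes were chosen by their role in endothelium and with their estimated counts at the 3 ages in these same libraries already known, so their differences between ages are given with standard errors (SE) and without p-values. RNA was taken from whole thymuses of wild type male C57BL/6 mice that were 2 weeks (2W), 6 weeks (6W) or 3 months (3M) old, with 2 biological replicates per age for RNA-seq and 2 per age for small RNA sequencing. No cell type was purified, so fewer endothelial cells and less RNA per endothelial cell cannot be told apart. The comparisons address how the vessel genes of the organ stand while the thymus grows and when it begins to shrink.

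Endothelial cells line the blood vessels of the thymus, bring progenitors into the organ and let mature T cells leave it. They hold together through VE-cadherin and PECAM-1, sense VEGF and angiopoietins through receptor tyrosine kinases, and sense BMP9 and BMP10 in the blood through ALK1 and its co-receptor endoglin. They also store von Willebrand factor and P-selectin for use at sites of injury. Some of these products are made by other cells as well: PECAM-1 is found on leukocytes and platelets, and platelets carry von Willebrand factor and P-selectin.

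Sequencing depth was 16519753 to 22553481 estimated counts per RNA library, and both 6W libraries were deeper than both 2W libraries. Every one of the 10 genes was detected in every library, and the smallest sum was 15 estimated counts for Selp in 2W replicate 1. Levels between libraries are given as CPM, the counts per 1000000 counts of the library after its total was scaled by the trimmed mean of M-values (TMM), and levels between genes as the authors' FPKM, which divides by transcript length. By mean FPKM over the 6 libraries the order was Pecam1 48.5, Eng 5.99, Plvap 5.08, Cdh5 4.94, Acvrl1 4.57, Vwf 2.69, Kdr 2.41, Flt1 1.75, Tek 1.42 and Selp 0.708. Pecam1 lay above the rest without overlap, at 39.0 to 53.2 FPKM, and Selp lay below the rest without overlap, at 0.25 to 0.97 FPKM. The ranges of the genes between them overlapped from each to the next, so that order does not separate neighbours.

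Across all genes tested, edgeR's quasi-likelihood test with Benjamini-Hochberg adjustment called 257 genes (1.74%) between 6W and 2W, 1 gene (0.00675%) between 3M and 6W, and 1630 genes (11.0%) between 3M and 2W. Of the endothelial genes, 1 (Acvrl1, higher), 0 and 4 (Acvrl1, Flt1, Plvap and Vwf, all higher) were among them, counts that are shown beside the background and read no further. The call at 6W against 2W was lost with annotated transcripts only, with the replicate block, and without any 1 of the 4 libraries compared, and the 4 calls at 3M against 2W became 0 without 2W replicate 1 and 1 without 2W replicate 2. DESeq2 called 3, 1 and 4 of them higher, beside 4.53%, 1.6% and 9.52% of all genes, and 1 lower at 3M against 2W, beside 5.34%. The median log2 fold change of the 10 genes was 0.28 at 6W against 2W, 0.07 at 3M against 6W and 0.73 at 3M against 2W, where the medians over all genes tested were -0.01, 0.02 and -0.03. In number, 7, 6 and 7 of the 10 had a positive log2 fold change, and the first count was 9 with total counts as the only scaling or with summed FPKM and 5 without 6W replicate 2. These comparisons share libraries, so a gene's 3 values are not independent of each other.

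**Figure D1:**
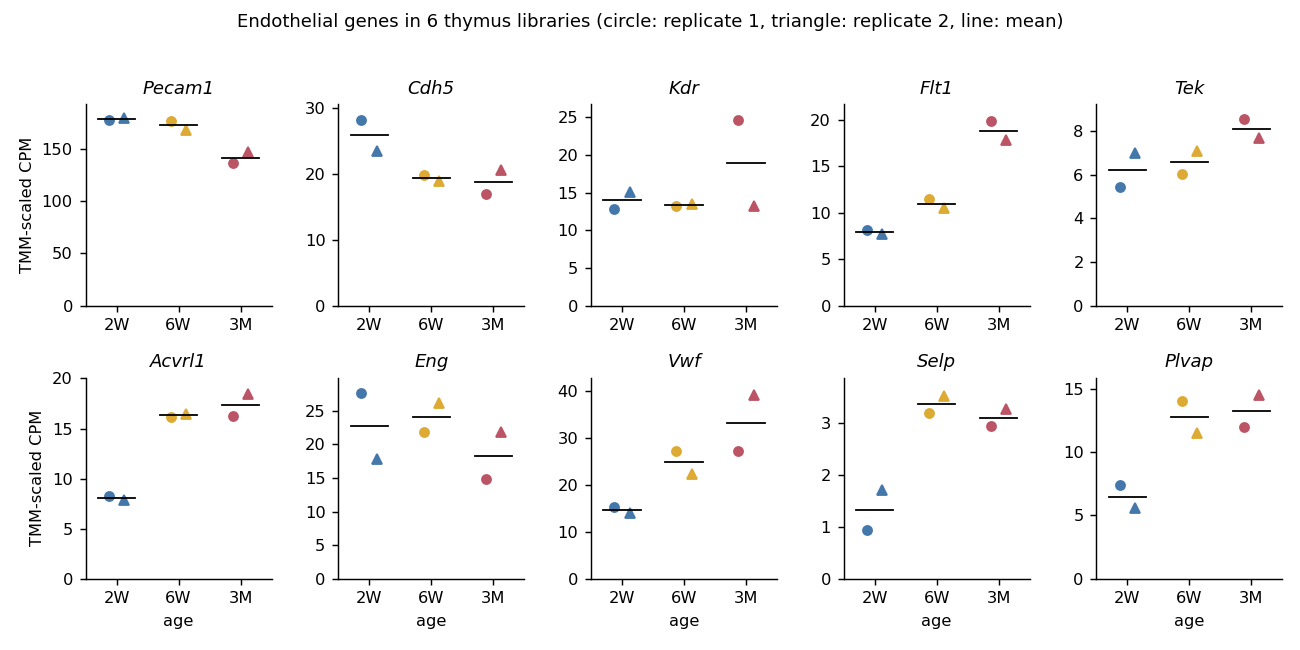
TMM-scaled CPM (vertical axes, from 0) of the 10 endothelial genes at the 3 ages (horizontal axes); the circle is replicate 1, the triangle replicate 2 and the line their mean. Acvrl1, Flt1, Plvap, Selp and Vwf lie higher in both 6W libraries than in both 2W libraries, Pecam1 and Cdh5 lie lower, and Kdr stands apart in 3M replicate 1 at 24.6 CPM.

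Pecam1 and Cdh5 encode proteins of the junctions between endothelial cells. Pecam1, which encodes an adhesion molecule of cell contacts, measured 178 and 180 CPM in 2W replicates 1 and 2, 177 and 169 CPM at 6W, and 136 and 147 CPM at 3M. Both 3M libraries lay below all 4 younger ones, with a log2 fold change of -0.34 (SE 0.10) at 3M against 2W and -0.28 (SE 0.10) at 3M against 6W. At 6W the difference from 2W was -0.05 (SE 0.10), and it was 0.02 when libraries were scaled by total counts alone. Cdh5, which encodes VE-cadherin, the adhesion protein of endothelial junctions, measured 28.2 and 23.5 CPM at 2W, 19.8 and 18.8 CPM at 6W, and 16.9 and 20.6 CPM at 3M. Here the step came between 2W and 6W, at -0.42 (SE 0.15), and the 3M libraries spread around the 6W ones, with a log2 fold change of -0.04 (SE 0.16). By mean FPKM, Cdh5 was the third of the 10 genes at 2W and the fifth at 6W and at 3M.

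The VEGF receptors showed different patterns. Kdr encodes VEGFR2, the main signalling receptor for VEGF-A, and measured 12.8 and 15.1 CPM at 2W, 13.2 and 13.5 CPM at 6W, and 24.6 and 13.3 CPM at 3M. Only 3M replicate 1 stood away from the other 5 libraries. The log2 fold change of 0.50 (SE 0.28) at 3M against 6W became -0.001 without that library, and the 0.43 (SE 0.28) at 3M against 2W became -0.05. Flt1 encodes VEGFR1, which binds VEGF-A tightly and exists in membrane and soluble forms. It measured 8.16 and 7.72 CPM at 2W, 11.5 and 10.5 CPM at 6W, and 19.9 and 17.9 CPM at 3M. The ages were in the same order in every library, with no overlap at either step, and the log2 fold change was 0.47 (SE 0.15) at 6W against 2W, 0.78 (SE 0.15) at 3M against 6W and 1.25 (SE 0.15) at 3M against 2W, a 2.37-fold difference. Within a library the ratio of Flt1 to Kdr counts was 0.637 and 0.514 at 2W, 0.870 and 0.778 at 6W, and 0.807 and 1.35 at 3M.

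The transcripts behind these sums were less even than the sums. For Kdr, all counts at 2W and in 3M replicate 2 were assigned to the annotated transcript ENSMUST00000113516, whereas an assembled transcript of the locus (TCONS_00093422) took 51.5% of the counts in 6W replicate 2, 28.7% in 3M replicate 1 and 6.2% in 6W replicate 1. For Flt1, ENSMUST00000031653 held between 27.2% and 80.9% of the counts, and an assembled transcript (TCONS_00095865) held 41.2% in 2W replicate 1 and 29.2% in 3M replicate 1 but 0 in the other 4 libraries. With annotated transcripts alone, the log2 fold change of Flt1 was 0.80 at 6W against 2W, 0.555 at 3M against 6W and 1.35 at 3M against 2W. That of Kdr was -0.57, 0.72 and 0.147 in the same order. Replicates of 1 age differed in the transcripts to which counts of these 2 receptors were assigned, and no order of transcripts by age is read from them.

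Of the 10 genes, 5 (Selp, Eng, Tek, Kdr and Flt1) had a promoter in the RefSeq table of build GRCm38.p6, from 250 bases before to 50 bases after a start that the table sets. That start need not be the outermost end of the gene: for Flt1, Kdr and Tek it lies inside the gene as RefSeq bounds it. The stretches of Flt1 and Selp are shown because both genes stood higher in every 6W and 3M library than in the 2W libraries; capitals mark GGAAG, the core that ETS factors such as ERG bind, or its reverse complement CTTCC. Flt1 lies on the minus strand at chr5:147725962-147726261 and Selp on the plus strand at chr1:164115014-164115313.
Flt1: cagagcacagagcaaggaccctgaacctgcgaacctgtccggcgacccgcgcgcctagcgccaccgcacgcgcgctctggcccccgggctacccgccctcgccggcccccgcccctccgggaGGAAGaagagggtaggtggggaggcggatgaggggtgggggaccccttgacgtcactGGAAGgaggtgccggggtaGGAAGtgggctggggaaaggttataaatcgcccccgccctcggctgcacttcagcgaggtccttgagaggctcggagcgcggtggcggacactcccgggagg
Selp: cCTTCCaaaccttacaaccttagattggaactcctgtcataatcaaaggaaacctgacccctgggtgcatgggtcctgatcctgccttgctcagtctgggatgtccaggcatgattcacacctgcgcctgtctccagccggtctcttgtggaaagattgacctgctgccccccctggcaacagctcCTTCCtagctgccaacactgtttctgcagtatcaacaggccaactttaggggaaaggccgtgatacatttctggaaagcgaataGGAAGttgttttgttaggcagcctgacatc
Each of the pair held 3 matches, Eng held 2, Kdr 1 and Tek 0. With both strands searched, 71.4% of the 32851 promoters of that length hold at least 1 match and 37.9% hold at least 2, so the letters alone do not set these genes apart.

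Tek encodes TIE2, the receptor for angiopoietins, and measured 5.44 and 6.99 CPM at 2W, 6.01 and 7.11 CPM at 6W, and 8.54 and 7.66 CPM at 3M. Both 3M libraries were above the other 4, but the margins were small, with log2 fold changes of 0.30 (SE 0.21) against 6W and 0.38 (SE 0.21) against 2W. The assignment to its transcripts shifted more than its sum did. ENSMUST00000071168 held 59.2% and 26.7% of Tek counts at 2W, 37.6% and 12.1% at 6W, and 0 in both 3M libraries, while ENSMUST00000102798 held 23.6% and 73.3%, then 57.0% and 87.9%, and at 3M all counts in replicate 1 and 92.0% in replicate 2. The 2W and 6W libraries overlapped in both shares, and the 3M libraries lay outside them.

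Acvrl1 and Eng encode ALK1 and its co-receptor endoglin, which act in 1 receptor complex, and their patterns differed. Acvrl1 measured 8.28 and 7.85 CPM at 2W, 16.1 and 16.5 CPM at 6W, and 16.2 and 18.4 CPM at 3M. The 4 older libraries ranged from 16.1 to 18.4 CPM, all above the 2W pair, which gave a log2 fold change of 1.02 (SE 0.14) at 6W against 2W, a 2.02-fold difference, and 0.09 (SE 0.14) at 3M against 6W. Eng measured 27.6 and 17.8 CPM at 2W, 21.9 and 26.1 CPM at 6W, and 14.8 and 21.9 CPM at 3M. The replicates of Eng lay far apart at 2W and at 3M, with log2 fold changes of 0.08 (SE 0.26) at 6W against 2W and -0.38 (SE 0.26) at 3M against 6W, and the first of these was -0.17 without 2W replicate 2 and 0.43 without 2W replicate 1. The second became -0.75 when 3M replicate 2 was left out and -0.13 when 3M replicate 1 was. The ratio of Acvrl1 to Eng counts in a library was 0.300 and 0.441 at 2W, 0.738 and 0.632 at 6W, and 1.10 and 0.842 at 3M. An assembled Acvrl1 transcript (TCONS_00041054) held 44.7% and 12.7% of the gene's counts at 2W and 0 in the other 4 libraries, and with annotated transcripts alone the difference at 6W against 2W was 1.49.

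Vwf and Selp encode proteins that endothelial cells store. Vwf, which encodes von Willebrand factor, the adhesive glycoprotein of Weibel-Palade bodies, measured 15.3 and 14.0 CPM at 2W, 27.1 and 22.4 CPM at 6W, and 27.2 and 39.1 CPM at 3M. The 3M libraries both lay above the 6W ones, though replicate 1 at 3M and replicate 1 at 6W nearly coincided. The log2 fold change was 0.76 (SE 0.20) at 6W against 2W and 0.43 (SE 0.20) at 3M against 6W, and the latter was 0.09 without 3M replicate 2. Selp encodes P-selectin, which lets leukocytes roll on the vessel wall, and had the lowest sums of the 10, at 15 and 28 estimated counts at 2W, 66 and 80 at 6W, and 49 and 73 at 3M. In CPM these are 0.948 and 1.72, 3.20 and 3.53, and 2.95 and 3.27. All 4 older libraries exceeded both 2W libraries, but the size rests on few counts: the log2 fold change of 1.33 (SE 0.35) at 6W against 2W was 0.97 without 2W replicate 1 and 1.85 without 2W replicate 2.

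Plvap encodes the protein of the diaphragms that close fenestrae and caveolae, and measured 7.40 and 5.58 CPM at 2W, 14.0 and 11.5 CPM at 6W, and 12.0 and 14.5 CPM at 3M. Its values resembled those of Acvrl1, with a log2 fold change of 0.97 (SE 0.21) at 6W against 2W and 0.06 (SE 0.21) at 3M against 6W. By mean FPKM, Plvap moved from place 4 at 2W to 3 at 6W and 2 at 3M, and Acvrl1 from 5 to 4 and 3, each passing Cdh5 on the way. A single annotated transcript held all Plvap counts in the 6 libraries.

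**Figure D2:**
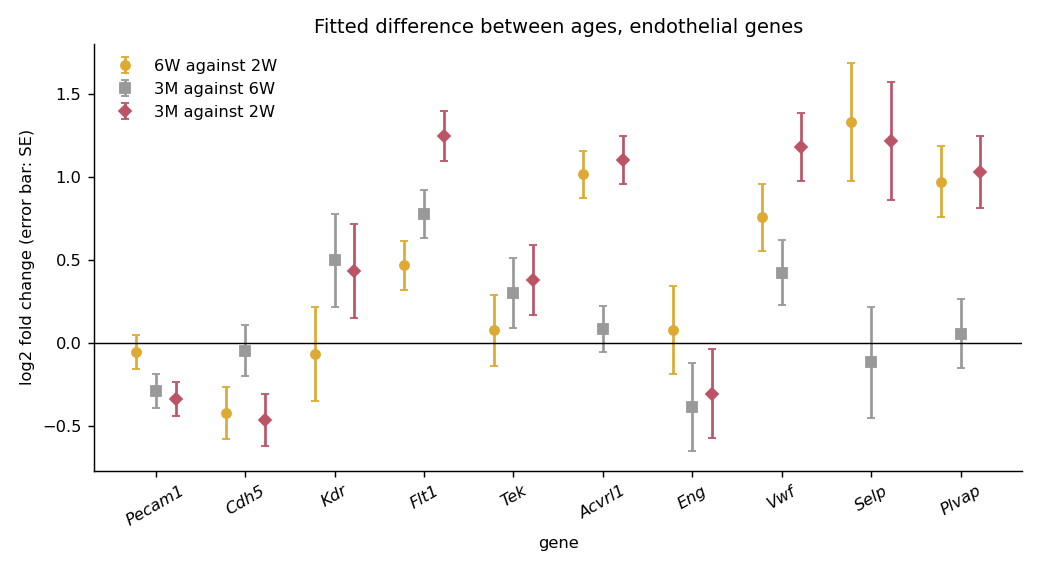
Fitted log2 fold change (vertical axis) of each of the 10 endothelial genes (horizontal axis) in the 3 comparisons of ages; points are estimates and bars their SE. At 6W against 2W the values run from -0.42 for Cdh5 to 1.33 for Selp, and at 3M against 6W they run from -0.38 for Eng to 0.78 for Flt1.

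In number, 5 of the 10 genes were higher without overlap at 6W than at 2W and 2 were lower, beside 28.0% and 29.8% of all genes tested that did so. At 3M against 6W the counts were 3 higher (Flt1, Tek and Vwf) and 1 lower (Pecam1), beside 25.9% and 23.3%, and at 3M against 2W they were 6 and 2, beside 27.7% and 24.0%. These counts use CPM. In FPKM the 3M and 6W libraries of Vwf overlapped, with 3.02 in 3M replicate 1 and 3.26 in 6W replicate 1. With the study's cut-offs, a 2-fold difference and p without adjustment under 0.05, the members higher were 2, 0 and 5 of 10, beside 4.48%, 1.29% and 7.67% of genes. These cut-offs were applied to the edgeR fit of gene sums, whereas the study used DESeq, so the counts are not the study's. In pairs of members, log2 CPM over the 6 libraries was most alike for Acvrl1 and Plvap (Pearson r 0.963) and for Vwf and Plvap (r 0.938), and most opposed for Pecam1 and Flt1 (r -0.946). These 6 points share 3 ages, so the coefficients describe the libraries only.

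Set against Cdh5 in the same library, a ratio that needs no scaling, the other 9 genes are described relative to the junction gene. This ratio was added after the data were seen, and Cdh5 had the most negative log2 fold change of the 10 at 6W against 2W, so that a higher mean ratio for the others at 6W was fixed by that choice and is no result. By fold of the mean ratio, the smallest differences were those of Kdr, from 0.549 to 0.691 (1.26-fold), and of Pecam1, from 6.98 to 8.93 (1.28-fold). The largest by fold was that of Selp, from 0.0534 to 0.174 (3.27-fold), followed by Acvrl1, from 0.314 to 0.845 (2.69-fold), and Plvap, from 0.250 to 0.658 (2.63-fold). Flt1 went on to 1.02 at 3M from 0.310 at 2W and 0.568 at 6W, and Vwf to 1.76 from 0.569 and 1.28. Kdr and Pecam1 were not higher at 6W in their own CPM (log2 fold changes -0.07 and -0.05), so their higher ratios at 6W are those of the denominator.

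**Figure D3:**
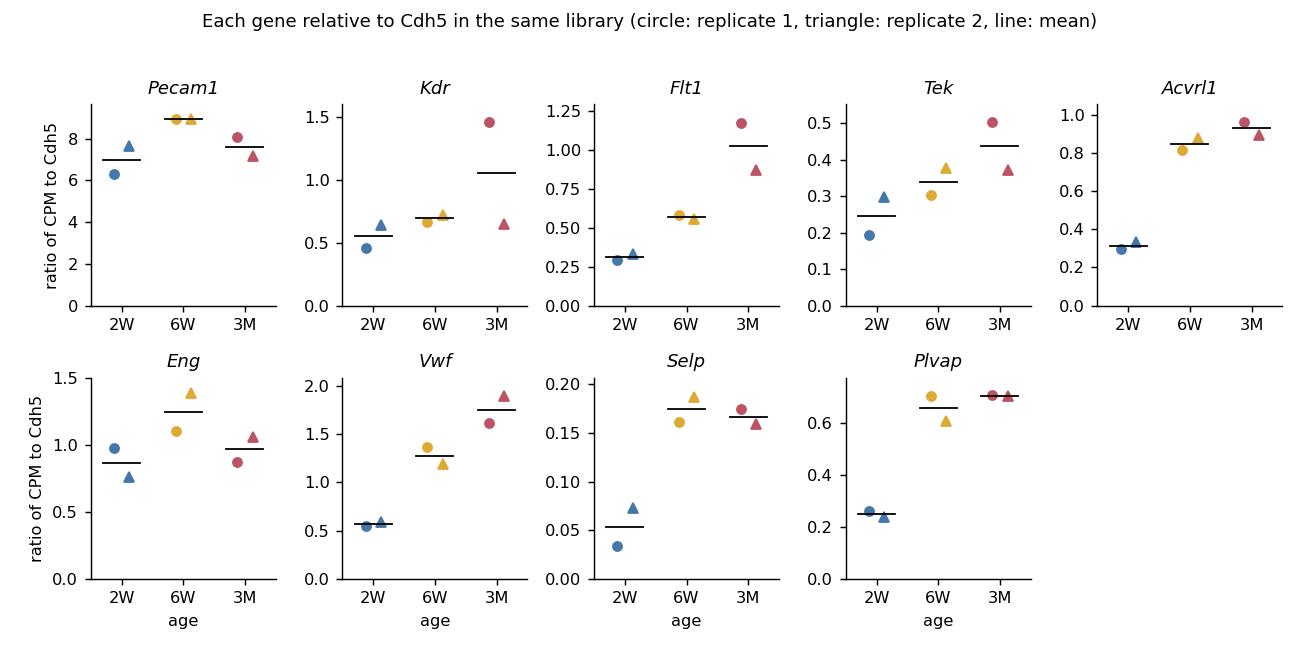
Ratio of each gene's CPM to that of Cdh5 in the same library (vertical axes, from 0) at the 3 ages; the circle is replicate 1, the triangle replicate 2 and the line their mean. Both 6W libraries lie above both 2W libraries in all 9 panels, where Cdh5, the denominator, was itself lower at 6W, and Flt1 and Vwf are higher again at 3M.

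Of 27 further endothelial genes tested, such as those of the vascular lineage and of endothelial surface proteins, edgeR called 0 at 6W against 2W and 1 at 3M against 2W, beside 1.74% and 11.0% of all genes. At 6W against 2W, 3 of them had an unadjusted p under 0.05, as did 18.9% of all genes, and DESeq2 called 0. The one called was Cyyr1, with a log2 fold change of 1.03 and an adjusted p of 0.0341 by edgeR. Their median log2 fold changes were 0.11, 0.11 and 0.04 in the order 6W against 2W, 3M against 6W and 3M against 2W, where the medians over all genes were -0.01, 0.02 and -0.03. Without overlap, 5 of the 27 were higher and 7 lower at 6W than at 2W, beside the 28.0% and 29.8% of all genes, and their log2 fold changes there ran from -1.03 for Pcdh12, a protocadherin, to 0.70 for Mmrn2, a multimerin of the vessel matrix. Their summed level was 223 and 264 CPM at 2W, 241 and 218 CPM at 6W and 249.6 and 217 CPM at 3M. Icam2, an adhesion molecule also found on lymphocytes and the one of highest FPKM among them, had log2 fold changes of 0.06 and -0.34 at 6W and at 3M against 2W (adjusted p = 0.829 and 0.152).

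Among the ligands and partners of the receptors, few genes passed the test. With all 6 libraries, neither edgeR nor DESeq2 called any of 12 genes of the VEGF and angiopoietin pathway in the 3 comparisons, though 1, 0 and 2 had an unadjusted p under 0.05 at 6W against 2W, 3M against 6W and 3M against 2W, beside 18.9%, 14.3% and 27.3% of all genes. With only the 4 libraries compared, edgeR called 1 lower at 6W against 2W, and without 3M replicate 1 it called 2 lower at 3M against 2W. Nrp1, the co-receptor of VEGF receptors and the one of highest FPKM, had a log2 fold change of -0.54 at 6W against 2W (adjusted p = 0.204). Of 21 genes of the ALK1 and endoglin pathway, 19 were tested. Gdf2 and Bmp10, which encode the blood-borne ligands BMP9 and BMP10, were too low to test, with at most 0.194 CPM in any library. Tgfbr3, the betaglycan co-receptor, was the 1 called by edgeR, higher at 3M than at 2W by 0.49 on the log2 scale (adjusted p = 0.0353), beside 7.91% of all genes. With total counts as the only scaling 3 of the list were called there, and DESeq2 called 1 higher at 6W against 2W. By edgeR, 4, 2 and 7 of the 19 had an unadjusted p under 0.05 in the 3 comparisons, beside 18.9%, 14.3% and 27.3%. Without overlap, 8, 12 and 9 of the 19 were higher, beside 28.0%, 25.9% and 27.7% of all genes. In the same order 5, 2 and 0 were lower, beside 29.8%, 23.3% and 24.0%. Their median log2 fold changes were 0.131, 0.229 and 0.145. Tgfb1 had the highest FPKM of that list and a log2 fold change of 0.24 at 6W against 2W (adjusted p = 0.618).

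Of 10 arterial genes, Dll4 fell at 6W against 2W (0.263% of all genes were called lower there, and 3.1% at 3M against 2W), with 26.6 and 25.4 CPM at 2W and 9.65 and 11.0 CPM at 6W (log2 fold change -1.33, adjusted p = 0.0231), and stayed lower at 3M against 2W (-0.87, adjusted p = 0.0185). Dll4 encodes a Notch ligand of arterial and sprouting endothelium and also of cortical thymic epithelium, so it does not mark endothelium alone here. Hey1, a Notch target and the arterial gene of highest FPKM, rose at 3M against 2W (0.80, adjusted p = 0.0254), beside 7.91% of all genes called higher. With all 6 libraries and the filter on low counts, edgeR called none of 5 venous and 7 tested capillary genes in any comparison. With no filter 1 venous gene was called lower at 3M against 2W, and without 3M replicate 2 1 was called higher. At 3M against 2W, 3 and 0 of them had an unadjusted p under 0.05, beside 27.3% of all genes, and DESeq2 called 1 venous gene lower, beside 5.34%. Ephb4, the venous receptor of ephrin-B2, had a log2 fold change of 0.15 at 3M against 2W (adjusted p = 0.556), and Rgcc, the capillary gene of highest FPKM, had 0.02 (adjusted p = 0.949).

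Homing and egress genes are those by which cells enter and leave the thymus. Of 15 homing and egress genes, 2 rose at 6W against 2W, and 5 rose at 3M against 2W, beside 1.47% and 7.91% of all genes tested that were called higher. Those counts were 0 and 3 with the replicate block, and both were 0 without 2W replicate 1. Enpp2, which encodes autotaxin, the enzyme that makes lysophosphatidic acid, measured 21.9 and 27.0 CPM at 2W, 64.8 and 55.9 CPM at 6W and 82.7 and 61.3 CPM at 3M (log2 fold changes 1.30 and 1.55 against 2W, adjusted p = 0.0362 and 0.00829). Vcam1, the ligand of integrin alpha4 beta1, measured 201 and 204 CPM at 2W, 360.5 and 319 CPM at 6W and 324 and 374 CPM at 3M (0.74 and 0.78, adjusted p = 0.0429 and 0.0136). Plpp3, which degrades lipid phosphates, and Cxcl12, the chemokine that holds progenitors, rose at 3M against 2W by 0.81 and 0.75 (adjusted p = 0.0151 and 0.0254). Ccl25, the thymic chemokine of highest FPKM in the list, had a log2 fold change of 0.16 at 6W against 2W (adjusted p = 0.513). Stromal cells of the thymus express several of these genes too.

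Of 8 haemostasis genes, Tfpi, the inhibitor of tissue factor, fell at both ages against 2W, from 16.1 and 20.3 CPM to 7.71 and 7.46 CPM at 6W and 8.42 and 7.39 CPM at 3M (-1.26 and -1.21, adjusted p = 0.0351 and 0.0126), beside 0.263% and 3.1% of all genes called lower. With all 6 libraries edgeR called none of the other 7, which did not hold without 3M replicate 1. Of the 8, 6 and 7 had a positive log2 fold change at 6W and at 3M against 2W, with medians of 0.28 and 0.62. Ece1, the haemostasis and vasomotor gene of highest FPKM, had 0.13 at 6W against 2W (adjusted p = 0.674). At 3M against 2W, where 7.91% of all genes were called higher, 2 of 6 caveola genes rose, Cavin1 by 1.01 (adjusted p = 0.0182) and Ehd2 by 0.52 (adjusted p = 0.0498), and 1 of 7 basement membrane genes, Lamb1, by 0.74 (adjusted p = 0.0131). Cav1 and Col4a1, of highest FPKM in those lists, had 0.61 (adjusted p = 0.290) and -0.44 (adjusted p = 0.114). The summed caveola genes were highest in 3M replicate 1, at 161 CPM against 108 CPM in replicate 2, and adipocyte markers were also highest in that library, at 234 against 132 CPM. Without it the caveola median at 3M against 2W went from 0.58 to 0.24, Cavin1 was at 0.84 (adjusted p = 0.0306) and the call of Ehd2 was lost (adjusted p = 0.0905). All 16 calls named in these lists were lost when at least 1 of the 6 libraries was left out, and 13 of them in at least 1 of the other settings, the highest adjusted p without a library being 0.382 for Vcam1 at 6W without 6W replicate 1.

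Markers of several other cell types differed with age as well. All 8 macrophage and dendritic cell markers were higher without overlap at 6W and at 3M than at 2W, with 4 and 7 of 8 called, beside 1.47% and 7.91% of all genes. The 4 became 0 without any 1 of the 4 libraries compared, with the replicate block and with annotated transcripts only, and the 7 became 2 without either 2W library. Their summed level went from 281 to 317 CPM at 2W to 610.0 to 656 CPM at 6W and 678 to 684 CPM at 3M. The 6 adipocyte markers summed to 37.4 to 39.6, 108 to 110.3 and 132 to 234 CPM, and the highest sum was that of 3M replicate 1, the library in which Kdr stood apart. Lymphatic endothelial markers, of which edgeR called 0 of 5 at 6W against 2W, summed to 9.23 to 10.7, 15.4 to 20.1 and 13.9 to 19.5 CPM. DESeq2 called 1 of them higher at 6W against 2W, beside 4.53% of all genes, and 2 had an unadjusted p under 0.05, beside 18.9%. Thymocyte markers went the other way, from 16040 to 17600 CPM at 2W to 15020.0 CPM in both 6W libraries and 12890 to 13080 CPM at 3M. The 6 cycling cell markers were all called lower at 3M against 2W, beside 3.1% of all genes, but 0 of them without 2W replicate 1 and 1 without 2W replicate 2, without either 6W library or with the replicate block. They had summed levels of 3605 to 3607, 2888 to 2935 and 1926 to 2438 CPM. Fibroblast markers were mixed at 3M against 2W, with 4 of 8 called higher, such as Dcn (1.44, adjusted p = 0.0178), and 2 lower, the collagen genes Col1a1 (-1.22, adjusted p = 0.00623) and Col3a1 (-1.23, adjusted p = 0.00792), and a median of 0.73. The call of Dcn was lost without either 2W library (adjusted p up to 0.0992). Without 2W replicate 1, 0 were called higher and 2 lower. Their sum was 470.1 to 521, 484 to 534.5 and 316.5 to 417 CPM. Thymic epithelium markers summed to 1330.0 to 1393, 1402 to 1462 and 1741 to 1868 CPM, with 2 of 9 called higher and 1 lower at 3M against 2W, and 0 called without any 1 of the 2W or 6W libraries.

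Markers of blood cells were uneven between libraries. Red blood cell markers summed to 548 to 816 CPM at 2W, 402 to 482 CPM at 6W, and 511 and 2167 CPM in 3M replicates 1 and 2, so the library with the most red cell RNA was also the one with the highest Vwf. The sum of the 10 platelet and megakaryocyte markers was 29.7 to 36.5, 53.4 to 54.7 and 53.0 to 56.0 CPM, nearly all of it Itgb3, an integrin chain that other cells also carry. The glycoproteins that define platelets were at or near 0, with Gp1ba and Gp6 each at 0 in 5 of the 6 libraries and Gp9 at 0.179 CPM at most, and Pf4 went from 0.379 and 0.858 CPM at 2W to 1.21 and 1.19 CPM at 6W and 0.842 and 0.896 CPM at 3M. Ppbp, another platelet chemokine gene, was at 0.253 and 0.0613 CPM at 2W, 0.194 and 0.353 CPM at 6W and 1.62 and 0.806 CPM at 3M, the age at which Vwf was highest, on 27 and 18 estimated counts at 3M (adjusted p = 0.0673 at 3M against 2W and 0.287 at 3M against 6W). Of the 4 platelet markers tested, edgeR with TMM scaling called only Itgb3, higher at 3M than at 2W, beside 7.91% of all genes. That call was lost with the replicate block and with only the 4 libraries compared. At 6W against 2W, DESeq2 called 1 of them higher, beside 4.53% of all genes, as did edgeR with total counts as the only scaling. Mural cell markers summed to 337 to 350, 288 to 297 and 309 to 328 CPM, while single markers went both ways. At 6W against 2W, 3 were higher and 4 lower without overlap, beside 28.0% and 29.8% of all genes. There edgeR called 1 higher, beside 1.47%, and DESeq2 called 2 higher, beside 4.53%, and 1 lower. At 3M against 2W, 7 of the 12 tested were higher and 1 lower without overlap (27.7% and 24.0% of all genes), with a median log2 fold change of 0.34, and edgeR called Acta2 higher (1.17, adjusted p = 0.0131) and Notch3 lower (-0.63, adjusted p = 0.0489). The call of Acta2 was lost without 2W replicate 2 (adjusted p = 0.064), and that of Notch3 without any library other than 3M replicate 2 (adjusted p up to 0.195). The part of these other cells in the values of the endothelial genes was not tested.

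**Figure D4:**
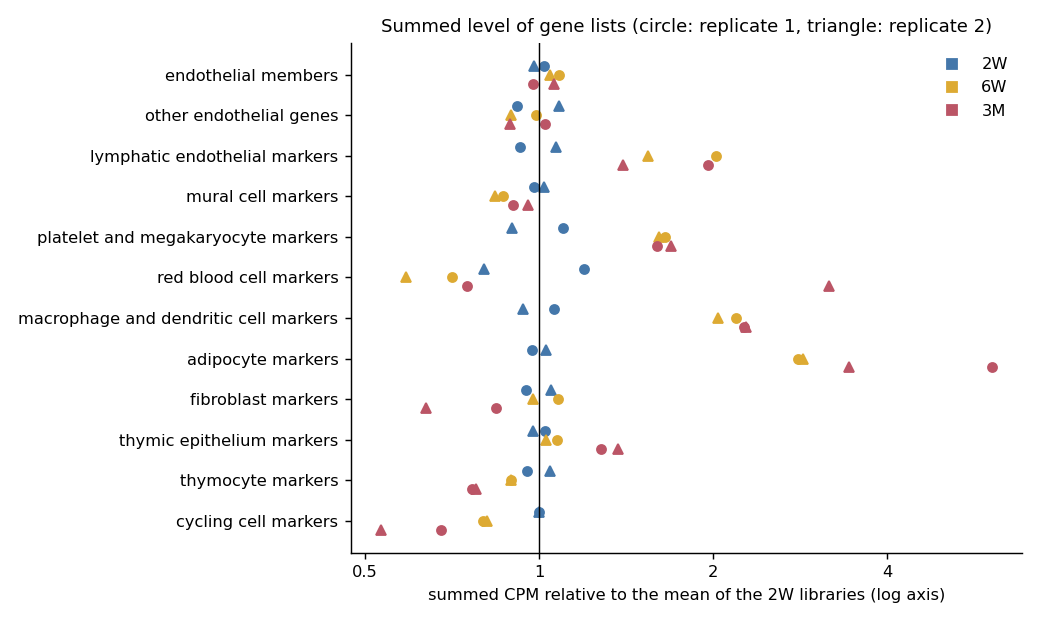
Summed CPM of each gene list divided by the mean of its 2 2W libraries (horizontal axis, log scale) for the lists named at the left; colours are ages, circles replicate 1 and triangles replicate 2. The 10 endothelial genes, whose sum is mostly Pecam1, stay near 1 (279 to 309.5 CPM in all libraries), while macrophage and adipocyte markers lie above 1 at 6W and 3M and thymocyte markers below 1.

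By a fixed rule, the genes most like the mean profile of the 10 members were Nkg7, Tuft1, H2-Aa, Rab3d, Cxcl16, Hexa, Naaa, Iqsec1, Lama3 and H2-Eb1, with Pearson r from 0.999 down to 0.995 over the 6 libraries. None of them was on any list used here. Of 10931 genes compared, 768 had r of at least 0.9. H2-Aa, a chain of MHC class II, measured 280.0 and 264 CPM at 2W, 479 and 469.9 CPM at 6W and 480.2 and 579.6 CPM at 3M.

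The small RNA libraries, of 9181478 to 10994118 tags, gave a separate readout. miR-126 is processed from an intron of Egfl7 and is abundant in endothelial cells. The table lists it by mouse names and also by names that end in x or y, and the sequences are shown because those pairs share their seeds (bases 2 to 8, in capitals, with T for U as deposited).
mmu-miR-126a-3p: tCGTACCGtgagtaataatgcg
miR-126-y: tCGTACCGtgagtaataatgaa
mmu-miR-126a-5p: cATTATTActtttggtacgcg
miR-126-x: cATTATTActtttggtacgcgaa
The name miR-126-y shares its first 20 bases with mmu-miR-126a-3p and differs from it by C21A and G22A (the base of the mouse name, the position counted from 1 at the 5′ end, and the base of the other name). The name miR-126-x holds all 21 bases of mmu-miR-126a-5p and 2 more at its 3′ end.

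Neither mouse name of miR-126 passed the test. mmu-miR-126a-3p measured 2981 and 2758 CPM at 2W, 2645 and 2296 CPM at 6W and 2717 and 3051 CPM at 3M, with log2 fold changes of -0.22 and 0.01 against 2W (edgeR quasi-likelihood test, adjusted p = 0.509 and 0.980). mmu-miR-126a-5p measured 1338 and 1233, 1283 and 1341, and 1805 and 1658 CPM, with 0.43 at 3M against 2W (adjusted p = 0.112). The rarer names rose. miR-126-y went from 27.6 and 22.6 CPM at 2W to 96.6 and 63.8 CPM at 6W and 100.1 and 134 CPM at 3M, with log2 fold changes of 1.67 and 2.22 (adjusted p = 0.00908 and 0.00052). miR-126-x went from 7.87 and 10.5 CPM to 17.6 and 21.3 CPM and 36.9 and 26.5 CPM, with 1.08 and 1.79 (adjusted p = 0.0351 and 0.0016). These calls stand beside 71 of 822 miRNAs called at 6W against 2W (8.64%), 7 at 3M against 6W (0.852%) and 246 at 3M against 2W (29.9%). At 6W the call of miR-126-y was lost without 6W replicate 1 (adjusted p = 0.12) and that of miR-126-x without any 1 of the 4 libraries compared (adjusted p up to 0.184), and at 3M neither was lost.

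As a share of the more abundant mouse name, miR-126-y was 0.927% and 0.821% of mmu-miR-126a-3p at 2W, 3.65% and 2.78% at 6W, and 3.68% and 4.39% at 3M. miR-126-x was 0.588% and 0.850% of mmu-miR-126a-5p at 2W, 1.37% and 1.59% at 6W, and 2.04% and 1.60% at 3M. Both older ages lay above 2W without overlap for both arms. Summed over the names that share their first 18 bases, a step added after the data were seen, the 3p arm measured 3009 and 2780, 2742 and 2360, and 2817 and 3185 CPM, and the 5p arm 1346 and 1244, 1301 and 1362, and 1841 and 1684 CPM. The 5p sum was higher in both 3M libraries than in the other 4, and the 3p sum overlapped between 2W and 3M. Names with an x, y or z suffix had a median log2 fold change of 0.03 at 6W and 0.08 at 3M against 2W over 255 such names tested, and mouse names had -0.19 and -0.15 over 546. The tail bases of miR-126-y recurred elsewhere: miR-145-y differs from mmu-miR-145a-3p by T21A and G22A.

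**Figure D5:**
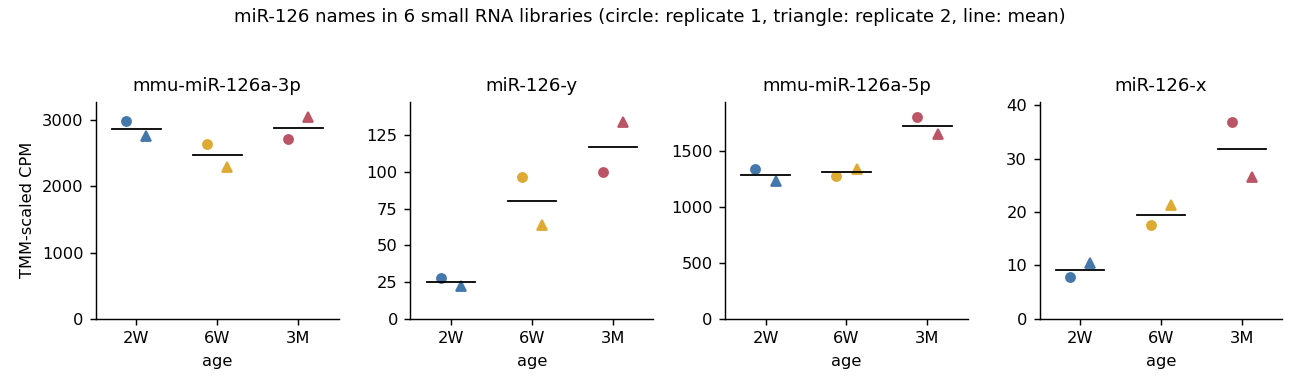
TMM-scaled CPM (vertical axes, from 0) of the 4 names of miR-126 at the 3 ages in the small RNA libraries; the circle is replicate 1, the triangle replicate 2 and the line their mean. mmu-miR-126a-3p stays between 2296 and 3051 CPM, while miR-126-y is at 22.6 to 27.6 CPM in the 2W libraries and at 63.8 to 134 CPM in the other 4.

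The miRNAs miR-143 and miR-145 were listed as miRNAs of smooth muscle. No cell type was purified, and which cells of the thymus they came from was not tested. mmu-miR-143-3p rose at 3M against 2W by 0.75 (adjusted p = 0.0248), from 44710 and 58770 CPM to 81460 and 92600 CPM, and mmu-miR-145a-3p by 1.74 (adjusted p = 0.000722), from 298 and 284 CPM to 1144 and 801 CPM. The former call was lost without 2W replicate 1 (adjusted p = 0.138) and without 3 of the other libraries, whereas the latter held without each of the 6. mmu-miR-145a-5p was at 0.86 (adjusted p = 0.0534), and mmu-miR-143-5p, miR-143-x, miR-143-y and miR-145-x were not called in any comparison. miR-145-y, a rarer name of the 3p arm, rose by 0.97 at 6W and 1.38 at 3M against 2W (adjusted p = 0.0393 and 0.0033), and the 6W call was lost without 2W replicate 2 or either 6W library (adjusted p up to 0.220). mmu-miR-126b-3p and mmu-miR-145b were too low to test.

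Some miRNAs are tied to 2 of the endothelial genes in the network the study built on these same samples, so their directions are not independent evidence of a link. The 3 tied to Acvrl1 carry x or y names and are shown beside mmu-miR-150-5p, since 1 of them differs from it within the seed.
miR-150-x: tCTCACAAcccttgtaccagtgt
mmu-miR-150-5p: tCTCCCAAcccttgtaccagtg
miR-187-y: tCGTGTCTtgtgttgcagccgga
miR-1843-x: tATGGAGGtctctgtctgacttt
The name miR-150-x differs from mmu-miR-150-5p by C5A, counted as above, and has 1 more base. It measured 8.25 and 8.82 CPM at 2W, 13.3 and 37.7 CPM at 6W and 40.6 and 24.0 CPM at 3M, and was called at 3M against 2W (1.92, adjusted p = 0.0106, and 0.0594 without 3M replicate 1). miR-1843-x rose at 6W and at 3M against 2W by 1.53 and 2.05 (adjusted p = 0.0309 and 0.0025), but only from 1.73 and 2.16 CPM to 5.24 and 6.03 and then 6.67 and 9.50 CPM. The 6W call was lost without any 1 of the 4 libraries compared (adjusted p up to 0.143). miR-187-y, at 2.78 to 7.67 CPM, was not called (adjusted p = 0.0749 at 6W against 2W), and it was the larger name of its arm, at 132% to 700.0% of mmu-miR-187-3p. All 3 were higher in both 6W and both 3M libraries than at 2W, as was the gene sum of Acvrl1. In the networks the paper shows, a miRNA and its mRNAs changed in opposite directions. Among the Acvrl1 transcripts, TCONS_00041054 had 58.5 and 16.2 estimated counts at 2W and 0 in each 6W and 3M library. Whether the link rests on a transcript or on the gene is not given here.

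Of the 4 tied to Kdr, which have 4 different seeds, the one called at both older ages against 2W is shown.
mmu-miR-300-3p: tATGCAAGggcaagctctcttc
It fell from 24.0 and 22.6 CPM at 2W to 9.09 and 6.03 CPM at 6W and 7.94 and 8.08 CPM at 3M (-1.62 and -1.54, adjusted p = 0.00908 and 0.00261), and the 6W call was lost without 6W replicate 2 (adjusted p = 0.137). mmu-miR-301b-5p fell at 3M against 2W by 1.13 on the log2 scale (adjusted p = 0.0298), a call lost without 3M replicate 1 (adjusted p = 0.165) and 3 other libraries. mmu-miR-18b-3p (-1.07 at 6W against 2W, adjusted p = 0.0775) and mmu-miR-210-5p (-2.39, adjusted p = 0.175, at most 2.11 CPM) were not called. The gene sum of Kdr was at 12.8 to 15.1 CPM in all 4 libraries of 2W and 6W. The paper's networks pair a decreased miRNA with increased mRNAs. The assembled Kdr transcript TCONS_00093422 had 0 estimated counts in both 2W libraries, 16.85 and 157 at 6W, and 117 and 0 at 3M. Whether the link rests on a transcript or on the gene is not given here.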

How the data were processed

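Total RNA of whole thymuses was sequenced as RNA-seq and as small RNA libraries, 2 per age and assay. The mRNA table held, per transcript, estimated counts and FPKM values computed by the authors, 84.1% of the estimated counts above 0 being not whole. The circRNA table held back-splice junction counts with the authors' RPM, and the miRNA table held tag counts with the authors' TPM, both deposited per library. The submitters' processing notes name Bowtie 0.12.2 and mm8 with no role. The quantifier of the mRNA table is not given in the sources used here. A table of long non-coding transcripts was not used here, and columns of per-sample values without a sample numbered 0.

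Estimated counts were summed over the transcripts of each gene symbol (symbols that differ only in letter case joined) and rounded. Transcripts with no symbol, 0.699% to 1.195% of estimated counts, were left out. edgeR 4.0.16 (R 4.3.3) fitted all 6 libraries with age as the only term, TMM scaling, the expression filter of edgeR by age, and the quasi-likelihood F test with Benjamini-Hochberg adjustment over all genes, called at an adjusted p under 0.05. miRNA counts were fitted in the same way. The study itself used DESeq, taking p without adjustment at 0.05 together with a 2-fold difference. With 2 libraries against 2, an exact permutation test cannot go below p = 0.333. On simulated data for 6W against 2W, the fit over 14805 genes recovered 54.0% of 2-fold and 88.0% of 4-fold changes, and the fit over 822 miRNAs recovered 46.0% and 93.0%.

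Alternatives were DESeq2 1.42.0, scaling by total counts, no filter on low counts, symbols kept apart by letter case, annotated transcripts only, the 4 libraries of a comparison alone, a replicate block, each library left out, and summed FPKM plus 0.1 on a log2 scale. The members and all lists were chosen with earlier results of these data known. Named are all members, from each pathway list and comparison at most 4 called genes of smallest p with the gene of highest FPKM, all listed miRNAs, and the 10 genes (mean CPM at least 5) most correlated with the members' mean standardised profile. Only some are named of the members' most alike partners, of the transcripts with at least 10 percent of a member's counts, and of the members' circRNAs. A closest mouse name is the one with the fewest mismatches from the 5′ end. RNA and small RNA libraries carry the same sample names in the labels, which do not state that the animal was the same, and no result pairs them. Intervals and floors would cover counting error only and none is printed.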

Additional observations from a re-analysis of the deposited data

Results flagged for a closer look

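Among the 10 genes, Pecam1 alone was a source of circRNAs in the deposited table, a readout used in no comparison above, and 5 of its circRNAs reached more than 3 junction counts in at least 1 library. The highest junction count in any library was 5 for novel_circ_001134, 6 for novel_circ_001135, 5 for novel_circ_001136, 5 for novel_circ_001137 and 13 for novel_circ_001139. Summed over its 7 sense circRNAs, Pecam1 had 8 and 18 junction counts at 2W, 28 and 21 at 6W and 5 and 12 at 3M. Set against 1000 estimated counts of Pecam1 mRNA in the same library, that was 2.84 and 6.14 at 2W, 7.68 and 5.49 at 6W and 2.21 and 3.65 at 3M. The ages overlapped in part, and no test was run on counts this low. The other circRNA assigned to Pecam1, novel_circ_001141, was on the opposite strand and outside the gene as RefSeq bounds it, with at most 2 junction counts.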

How the results depend on the processing

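Counts of called genes depended strongly on the processing, while the directions described for the endothelial genes mostly did not. For 6W against 2W, 3M against 6W and 3M against 2W in that order, edgeR called 257, 1 and 1630 genes. At 6W against 2W the count was 888 with DESeq2, 395 with total counts as the only scaling, 467 with no filter, 124 with symbols kept apart, 4 with annotated transcripts only and 662 with the 4 libraries alone. At 3M against 6W it was 341 with DESeq2, 19 with no filter, and 0 with symbols kept apart, annotated transcripts only or the 4 libraries alone. At 3M against 2W it was 922 with annotated transcripts only and 663 with the 4 libraries alone. Leaving out 1 library gave 0 to 658, 0 to 11 and 239 to 1741 genes, the 0 at 6W against 2W without 2W replicate 2 or 6W replicate 1, with at most 2 without the other libraries compared, and the 239 without 2W replicate 1. Where 1 library remained at an age, it was assumed to vary like the other ages.

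For miRNAs, where edgeR called 71, 7 and 246, no filter gave 109 at 6W against 2W and 47 at 3M against 6W, and DESeq2 gave 44 at 3M against 6W. Leaving out 1 library gave 3 to 105, 0 to 22 and 158 to 208. The member median, 0.28, 0.07 and 0.73 on the log2 scale, was 0.34 and 0.80 (first and last comparison) with total counts, 0.41 and 0.68 with annotated transcripts only and 0.31 and 0.79 with summed FPKM. Leaving out 1 library gave 0.26 to 0.47, -0.10 to 0.14 and 0.59 to 0.82, and without 3M replicate 2 the median at 3M against 6W was -0.10. Without 2W replicate 1, 0 of the 10 genes were called at 3M against 2W, and without 2W replicate 2, 1 was.

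Same-numbered RNA libraries correlated at -0.058 (2W and 6W), -0.178 (2W and 3M) and 0.353 (6W and 3M) in their deviations from the age means. These values do not settle whether libraries of the same number share a factor. Replicate 2 was the deeper RNA library at each age. With the replicate block, edgeR called 5, 0 and 742 genes, and 49, 10 and 231 miRNAs. The result of Foxn1 at 3M against 2W changed sign, from -0.82 to 9.10 with annotated transcripts only (adjusted p = 0.346). The latter is a fitted value that is no bound, and the cause was not tested. Smaller differences changed sign as well, such as that of Pecam1 at 6W against 2W given above. Depth limits Selp most, at 15 estimated counts in its lowest library.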
